A study of Mus musculus with 4 samples.

Results

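The autophagy machinery was examined as the set of array probes whose listed gene name starts with ATG and a number, or is 1 of the named core genes (BECN1, ULK1, ULK2, MAP1LC3A, MAP1LC3B, GABARAP, GABARAPL1, GABARAPL2, SQSTM1, NBR1, OPTN, WIPI1, WIPI2, PIK3C3, RB1CC1 and TAX1BP1). This name rule took in 32 probes of 18 genes, out of 45281 probes and 31492 names on the array. Another 6 names in the rule (UVRAG, AMBRA1, TFEB, TFE3, VMP1 and CALCOCO1) had no probe under that name. Of the 32 probes, 27 probes of 17 genes could be tested, and Rb1cc1 was the 1 gene without a testable probe.

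RNA came from the subcutaneous white fat of C57BL/6 mice aged 8 to 12 weeks that had eaten a high-fat diet containing doxycycline for 3 weeks. In FtMT-Adip mice the fat carried a transgene for mitochondrial ferritin, an iron store of the mitochondrion, described only as fat-specific. The wild-type (WT) mice ate the same diet with doxycycline. Each group had 2 arrays, and the labels do not say whether an array held 1 mouse or a pool, so the p-values may measure technical spread only. Which promoter drives the transgene is not named in the labels. The probe for the mouse gene Ftmt read 104.9 and 106.8 in FtMT-Adip, against 102.1 and 110.6 in WT, above background on 0 arrays, so it does not check the labels.

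Macroautophagy encloses a piece of cytoplasm in a double membrane and delivers it to the lysosome. The ULK kinase complex starts the process, the class III phosphatidylinositol 3-kinase complex marks the membrane with a lipid that WIPI proteins read, and ATG conjugation enzymes attach proteins of the ATG8 family (the LC3 and GABARAP proteins) to it. Cargo receptors such as p62, encoded by Sqstm1, bind both the cargo and the ATG8 proteins and are themselves degraded along the way. In fat, autophagy is known for its part in the formation of white fat cells and in the removal of mitochondria. Much of this control acts on proteins, which an array of messenger RNA does not measure.

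Most of the machinery did not pass the test. Map1lc3a, an LC3 gene, was 2.33-fold lower in FtMT-Adip by its brighter probe and 1.95-fold lower by the other, and Wipi1, a reader of the membrane lipid, was 1.89-fold lower by 1 of its 3 probes. Sqstm1 was 1.71-fold higher in FtMT-Adip. The test was limma's moderated linear model with Benjamini-Hochberg adjustment over 20797 probes, and a probe was called when its adjusted p was under 0.05. Among the 27 tested autophagy probes 1 was called higher, where the background over all probes was 3.28%, and 3 were called lower, where it was 4.16%. As a share, 14.8% of the autophagy probes were called in either direction, where the background was 7.44%. The calls came from 1 gene higher and 2 lower. Another 29 tested probes, which fit the rule only by their current symbols and are given below, had 0 calls. The share thus depends on the names listed on the array. The median log2 change was -0.10 over the autophagy probes and 0.00 over all tested probes, with 9 autophagy probes above 0 and 18 below.

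The arrays of the groups did not overlap for 5 autophagy probes that were higher in FtMT-Adip, where 25.6% of all probes did the same, and for 12 that were lower, where the background was 25.9%. On the remaining 10 probes the groups overlapped. An unadjusted p under 0.05 was reached by 10 of the 27 probes, against a background of 21.4%. The 5 higher probes and these 10 include Atg4c, which entered the test only through its FtMT-Adip arrays. Every probe of Map1lc3a, Wipi1 and Optn is among both the 12 lower probes and these 10. The counts are therefore of probes, not of separate genes. Signals are given below as deposited, before normalization, in arbitrary intensity units, and one probe's signal is not comparable with another's. Log2 changes and statements on overlap use the normalized values.

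**Figure D1:**
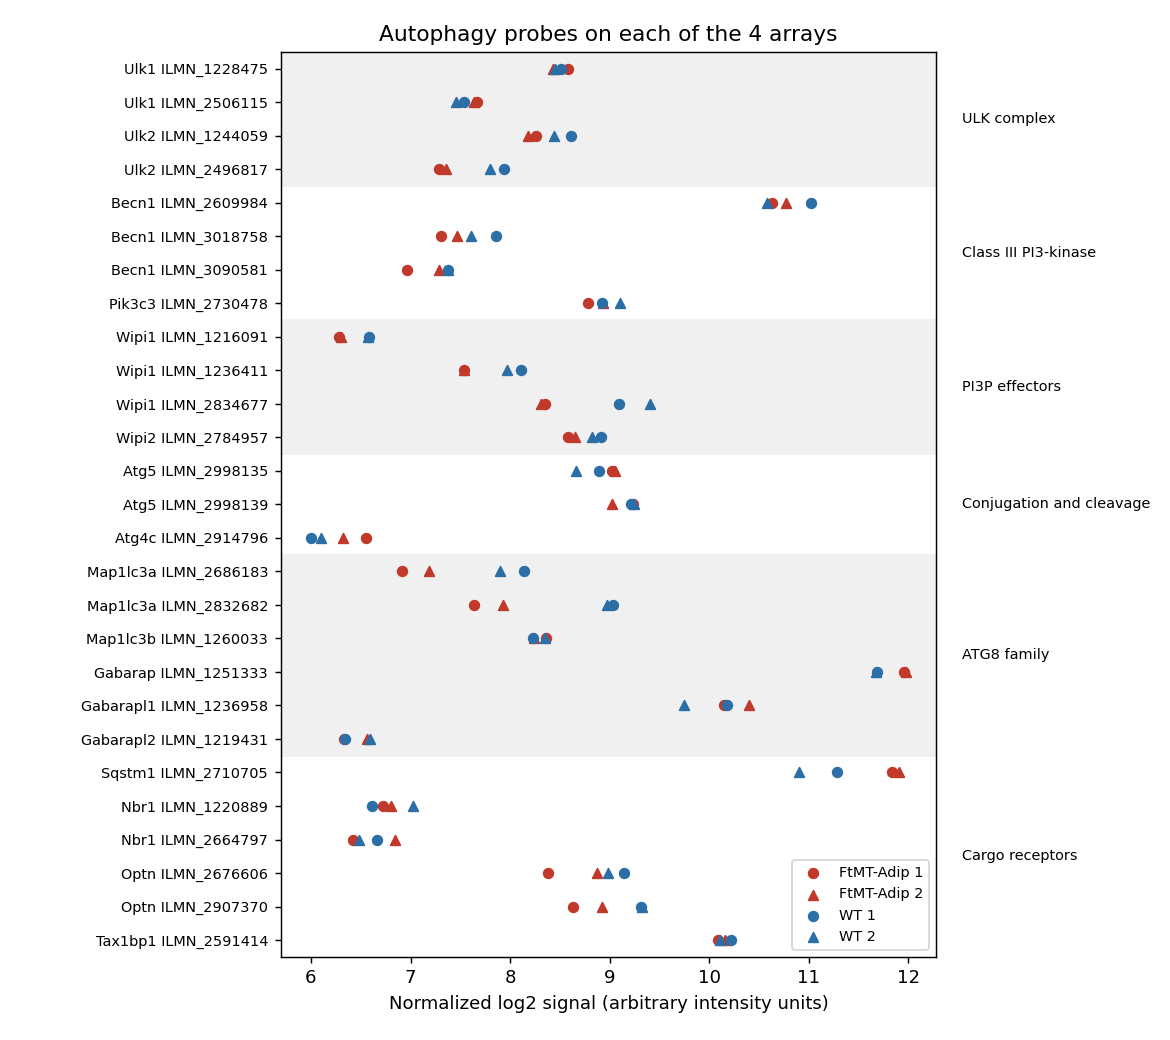
Normalized log2 signal of each of the 27 tested autophagy probes, grouped by role, with 1 point per array (red, FtMT-Adip; blue, WT; circle and triangle, replicates 1 and 2). The red points lie apart to the left of the blue ones for both Map1lc3a probes and all 3 Wipi1 probes, and apart to the right for Sqstm1.

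The 250 bases before the transcription start are shown for Wipi1 and Sqstm1, the called genes with an entry in the promoter table, so that the factor sites searched below can be seen in their setting. Both are from RefSeq on the build GRCm38.p6 and both genes lie on the minus strand of chromosome 11, Wipi1 with its window at chr11:109611390-109611639 and Sqstm1 at chr11:50210821-50211070. Capitals mark the letters GGGCGG on either strand, a GC-box of the kind that SP1 binds.
Wipi1: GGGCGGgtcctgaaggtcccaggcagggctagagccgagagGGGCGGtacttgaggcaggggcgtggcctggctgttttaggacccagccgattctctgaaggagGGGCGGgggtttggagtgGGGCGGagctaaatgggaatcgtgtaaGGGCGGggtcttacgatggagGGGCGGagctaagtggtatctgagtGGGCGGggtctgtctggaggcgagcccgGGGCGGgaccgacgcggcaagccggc
Sqstm1: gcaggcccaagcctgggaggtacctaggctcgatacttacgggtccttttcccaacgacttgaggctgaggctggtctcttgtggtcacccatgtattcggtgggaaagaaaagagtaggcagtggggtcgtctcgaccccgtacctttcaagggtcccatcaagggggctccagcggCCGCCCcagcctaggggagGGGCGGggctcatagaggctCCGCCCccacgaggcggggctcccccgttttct

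Promoter entries were found for 14 of the 18 genes, and motifs were searched on both strands in windows of 300 bases, which add the first 50 transcribed bases. The lysosomal CLEAR element, TCACGTGA, occurred in 0 of the 14, against 1.01% of all 27025 promoters. Its shorter core, the E-box CACGTG, lay in the Atg5 promoter alone and in 7.24% of all promoters. The C/EBP-ATF element, TGATGNAAN, occurred in 0 of the 14 and in 4.04% of all. The antioxidant response element, TGACNNNGC, was found in the Map1lc3b and Ulk2 promoters and in 12.5% of all, and the cyclic AMP response element, TGACGTCA, in the Atg5 promoter and in 1.88% of all.

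The GC-box was added to the search after the sequences had been read. It occurred at least once in 12 of the 14 promoters and in 35.9% of all. The Wipi1 window held 9 matches, a number reached by 0.13% of all promoters, and the Sqstm1 window held 3, reached by 10.7%. The GC content of the windows was 69.0% for Wipi1 and 63.3% for Sqstm1, where the median promoter had 52.7%. These matches describe the letters only, and nothing here measured a factor at them.

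At the start of the pathway, Ulk1 encodes the initiating kinase, and neither of its probes was called. The probe ILMN_1228475 read 418.3 and 409.6 in FtMT-Adip, against 416.4 and 384.7 in WT, a log2 change of 0.02 (limma, adjusted p = 0.953). The second probe, ILMN_2506115, read 244.9 and 253.9 in FtMT-Adip, against 233.6 and 217.6 in WT, a log2 change of 0.15 (adjusted p = 0.602). The groups overlapped on ILMN_1228475 and stood narrowly apart on ILMN_2506115. Ulk2, its close relative, had lower values in FtMT-Adip on both probes without passing the test. Its probe ILMN_2496817 read 199.8 and 218.3 in FtMT-Adip, against 295.5 and 260.8 in WT, with no overlap and a log2 change of -0.55 (SE 0.145, n = 2 per group, limma adjusted p = 0.0573). The other Ulk2 probe read 344.8 and 352.9 in FtMT-Adip, against 445.8 and 381.1 in WT, a log2 change of -0.31 (adjusted p = 0.296). Rb1cc1, the scaffold of the ULK complex, was below background on both of its probes and was not tested.

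Becn1, the beclin subunit of the lipid kinase complex, had 3 tested probes, none called, with log2 changes below 0 on all 3, although the brightest was at 0.12 both in the authors' normalized values and without WT replicate 1. Its brightest probe, ILMN_2609984, read 1528.4 and 1827.6 in FtMT-Adip, against 2259.2 and 1541.8 in WT, a log2 change of -0.10 (limma, adjusted p = 0.811). On the normalized scale both FtMT-Adip arrays lay between the WT arrays, while the deposited signal of 1528.4 was below both WT signals. On the other tested probes the log2 changes were -0.35 (adjusted p = 0.245) and -0.25 (adjusted p = 0.407). A further Becn1 probe, ILMN_2489136, was below background on all 4 arrays and was not tested. Pik3c3, the catalytic subunit, read 474.6 and 560.2 in FtMT-Adip, against 541.9 and 568.8 in WT, a log2 change of -0.16 (adjusted p = 0.627).

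Wipi1 was lower in FtMT-Adip by probe ILMN_2834677, which read 363.1 and 380.9 in FtMT-Adip, against 602.2 and 693.6 in WT. Both FtMT-Adip arrays lay well below both WT arrays. On the normalized scale this was 8.33 ± 0.03 in FtMT-Adip and 9.25 ± 0.22 in WT (SD, n = 2 each), a log2 change of -0.92 (SE 0.165, limma adjusted p = 0.0120), and 1.72% of all tested probes fell further. Without WT replicate 2 the log2 change was -0.77 and the adjusted p 0.0528, so the call rests on that array.

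The other Wipi1 probes had lower signals in FtMT-Adip too, without overlap and without passing the test. ILMN_1236411 read 227.7 and 240.7 in FtMT-Adip, against 327.5 and 288.7 in WT, a log2 change of -0.51 (SE 0.146, limma adjusted p = 0.0767). ILMN_1216091, the dimmest, read 123.6 and 127.8 in FtMT-Adip, against 142.9 and 139.5 in WT, a log2 change of -0.28 (SE 0.0973, adjusted p = 0.132). Wipi2, a relative that recruits the conjugation enzymes, read 416.4 and 469.6 in FtMT-Adip, against 539.1 and 480.3 in WT. The log2 change of Wipi2 was -0.26 (limma adjusted p = 0.377). Further Wipi2 probes, listed under an older name, were at -0.16 and -0.10 and were not called.

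Among the conjugation and cleavage enzymes none was called. Atg5 is part of the complex that attaches ATG8 proteins to lipid. Its probes under that name differed in sign, with log2 changes of 0.26 (limma, adjusted p = 0.391) and -0.10 (adjusted p = 0.791). A further Atg5 probe, listed under the older name APG5L, was at 0.27 (adjusted p = 0.490). Atg4c, a protease that trims ATG8 proteins, read 139.6 and 128.9 in FtMT-Adip, above background on both arrays, against 110.9 and 114.2 in WT, not above background on either. Its FtMT-Adip mean was at least 1.17-fold higher, taking the lowest signal above background on each WT array as the bound (measured means 6.44 in FtMT-Adip and 6.05 in WT on the log2 scale; limma adjusted p = 0.0578). This probe entered the test only through its FtMT-Adip arrays and was not tested with the filter on all 4 arrays. No conclusion is therefore drawn from its p-values. A second Atg4c probe was below background on all 4 arrays.

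The ATG8 family held the largest fall among the autophagy probes. Map1lc3a, which encodes LC3A, read 241.6 and 302.6 in FtMT-Adip on probe ILMN_2832682, against 580.1 and 527.3 in WT. Both WT arrays lay far above both FtMT-Adip arrays. The normalized log2 signal was 7.79 ± 0.21 in FtMT-Adip and 9.01 ± 0.04 in WT (SD, n = 2 each), a log2 change of -1.22 (SE 0.163, limma adjusted p = 0.00353). Further falls were measured for 0.789% of the tested probes. The call was kept when any 1 array was left out, with log2 changes between -1.36 and -1.07.

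The second Map1lc3a probe, ILMN_2686183, read 165.0 and 197.8 in FtMT-Adip, against 332.2 and 277.0 in WT. Here too the groups stood apart, with a log2 change of -0.97 (SE 0.164, limma adjusted p = 0.00961). Without FtMT-Adip replicate 1 it was -0.84 with an adjusted p of 0.0594. In the authors' deposited table the ratios of FtMT-Adip to WT means were 0.391 and 0.509 for the 2 probes.

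The other ATG8 genes were not called. Map1lc3b, which encodes the LC3 protein most used as an autophagosome marker, read 365.0 and 365.9 in FtMT-Adip, against 351.7 and 360.5 in WT, a log2 change of 0.01 (SE 0.151, limma adjusted p = 0.981). The normalized arrays of the groups overlapped. In the authors' deposited table the Map1lc3b ratio of FtMT-Adip to WT was 1.67, and its log2 change in the authors' normalized values was 0.76, not called either (adjusted p = 0.226). Gabarap read 3797.2 and 4104.3 in FtMT-Adip, against 3547.7 and 3266.4 in WT, a log2 change of 0.28 (SE 0.137, adjusted p = 0.280) with no overlap. Gabarapl1 read 1128.7 and 1434.5 in FtMT-Adip, against 1264.1 and 877.9 in WT, a log2 change of 0.31 (adjusted p = 0.396) with overlap. Gabarapl2 read 126.3 and 144.2 in FtMT-Adip, against 127.8 and 141.1 in WT, near background, a log2 change of -0.02 (adjusted p = 0.962). Its other probe was below background on all 4 arrays and was not tested. Gabarapl2 has a pseudogene copy in mouse, and whether its probes read that copy was not tested. Whether Map1lc3a differed from these relatives in its change was not tested. Of the 4, Map1lc3b, Gabarap, Gabarapl1 and Gabarapl2, the last 3 changed sign in the authors' deposited normalized values and Map1lc3b did so with 1 array left out, so no direction is given for them.

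**Figure D2:**
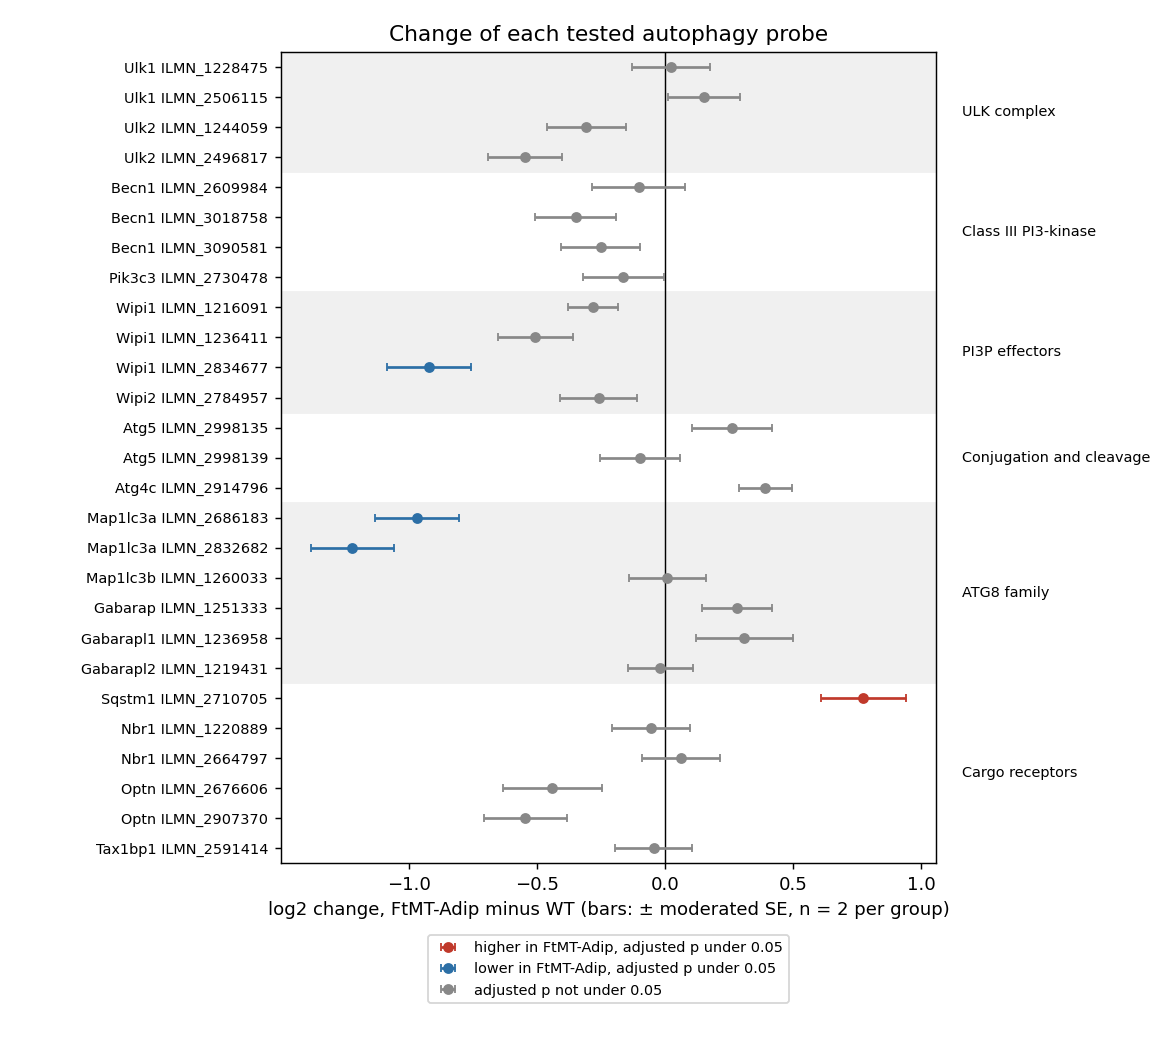
Log2 change, FtMT-Adip minus WT, of each tested autophagy probe with its moderated SE (n = 2 arrays per group). The points for Map1lc3a and Wipi1 ILMN_2834677 are called lower (blue), Sqstm1 is called higher (red) and no other probe passed the test (grey).

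Among the cargo receptors Sqstm1 was the 1 gene called. Its probe, ILMN_2710705, read 3500.8 and 3889.2 in FtMT-Adip, against 2695.5 and 1921.7 in WT. The FtMT-Adip arrays were close together and above both WT arrays, which were spread apart. On the normalized scale Sqstm1 was 11.87 ± 0.05 in FtMT-Adip and 11.09 ± 0.27 in WT (SD, n = 2 each), a log2 change of 0.78 (SE 0.167, limma adjusted p = 0.0254), and 2.27% of the tested probes rose further. The ratio in the authors' deposited table was 1.48. The Sqstm1 call was the least stable of the 4, since it was kept without WT replicate 1 (log2 change 0.97, adjusted p = 0.0186) and lost when any other array was left out. It had a log2 change of 0.59 without WT replicate 2 (adjusted p = 0.0949), 0.80 without FtMT-Adip replicate 1 (adjusted p = 0.0756) and 0.75 without FtMT-Adip replicate 2 (adjusted p = 0.0624). The Sqstm1 call was also lost with median scaling of the arrays in place of quantile normalization (log2 change 0.70, adjusted p = 0.0524). In the authors' deposited normalized values the log2 change of Sqstm1 was 0.56 (adjusted p = 0.312), and of the 4 called probes ILMN_2832682 of Map1lc3a alone stayed called there.

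Optn, the receptor optineurin that takes part in the removal of damaged mitochondria, had the largest difference after the called genes within this role. Its probe ILMN_2907370 read 429.6 and 557.6 in FtMT-Adip, against 700.6 and 657.8 in WT, with no overlap and a log2 change of -0.54 (SE 0.163, limma adjusted p = 0.0871). Its other probe had a log2 change of -0.44 (adjusted p = 0.231). There the deposited signals of the groups overlapped and the normalized ones did not. Nbr1, a receptor related to p62, had log2 changes of 0.06 (adjusted p = 0.865) and -0.05 (adjusted p = 0.890) on its probes. Tax1bp1, which acts beside p62 on protein aggregates, read 1087.1 and 1217.0 in FtMT-Adip, against 1301.2 and 1125.2 in WT, a log2 change of -0.04 (adjusted p = 0.912).

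**Figure D3:**
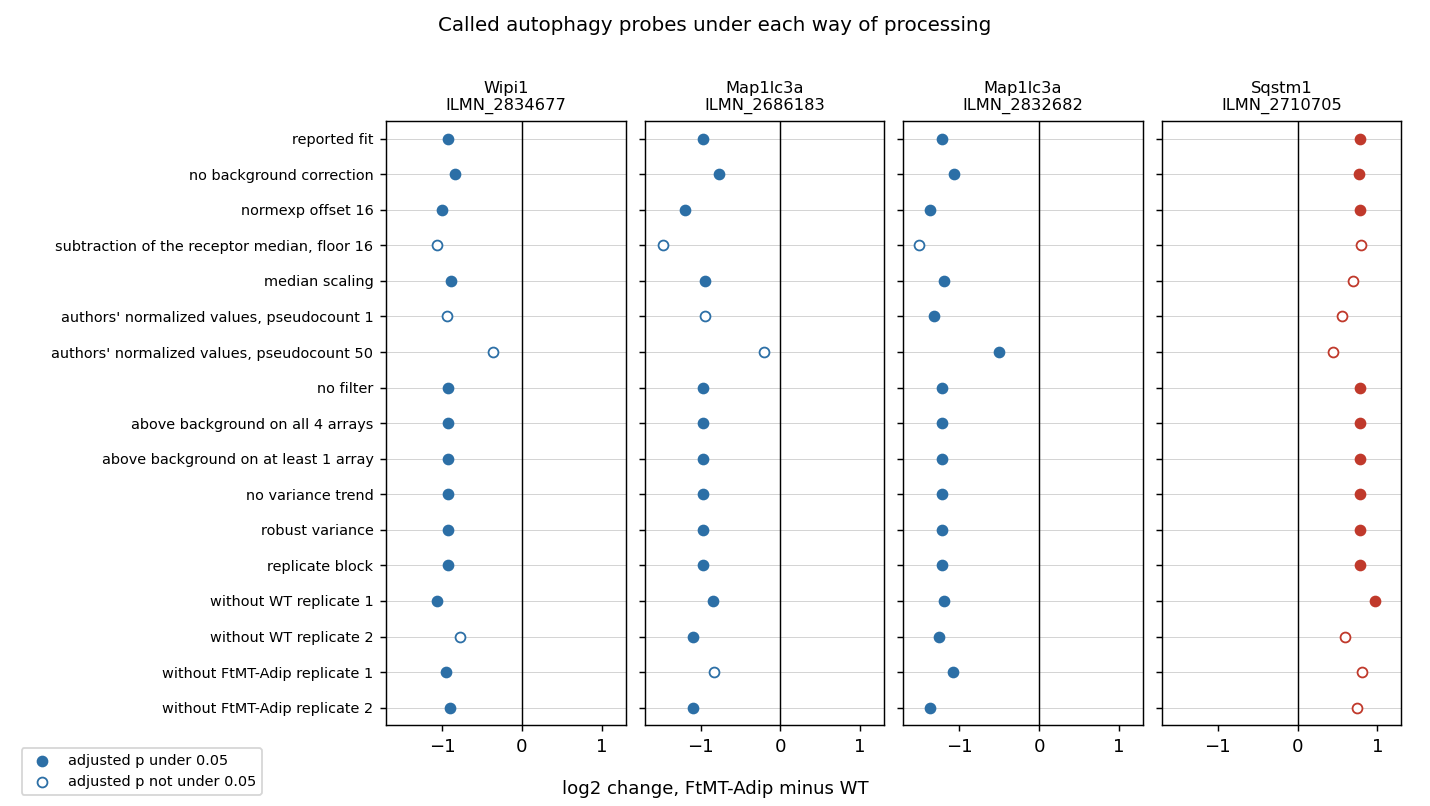
Log2 change of the 4 called autophagy probes under the reported processing and 16 alternatives (filled, adjusted p under 0.05; open, not). The Map1lc3a probe ILMN_2832682 stays filled in all but subtraction of the receptor median, and Sqstm1 is open in 7 of the alternatives.

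Many autophagy genes are listed on this array under older names, such as APG10L for Atg10, which the name rule does not take in. Through RefSeq synonyms 45 more probes of 25 genes carry a current symbol that fits the rule, 21 of the genes having no probe among the members. Of these, 29 probes of 20 genes were tested. Calls numbered 0 in both directions by limma, where the background over all tested probes was 3.28% higher and 4.16% lower. Of the 29 probes, 2 reached an unadjusted p under 0.05, against a background of 21.4%. Log2 changes of the 29 ran from -0.38 to 0.27 with a median of -0.02, and the smallest adjusted p was 0.184. The groups stood apart for 7 probes higher and 6 lower in FtMT-Adip, where 25.6% and 25.9% of all tested probes did.

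By role, the ULK complex subunits Atg13 and Atg101 had log2 changes of 0.20 and -0.26. Atg12, the small protein joined to Atg5, read 672.6 and 842.0 in FtMT-Adip, against 963.2 and 977.0 in WT, with no overlap and a log2 change of -0.38 (limma, adjusted p = 0.208). Its E1-like enzyme Atg7 had a log2 change of 0.08, and its E2-like enzyme Atg10 -0.18 and -0.04. Atg3, the E2-like enzyme for ATG8 proteins, was at -0.20 and the partner Atg16l1 at -0.19. Vmp1, a membrane protein needed for autophagosome formation, had a log2 change above 0 on all 4 tested probes, between 0.12 and 0.27, none called. The lysosomal transcription factors Tfe3 and Tfeb had log2 changes of 0.11 and -0.02. All of these missed the adjusted threshold, which does not show that they were equal between the groups.

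The genes around the machinery were read from 6 pathway lists, each gene represented by its brightest tested probe. Over all 14580 named genes tested this way, 3.57% were called higher and 4.29% lower, 7.86% in either direction, with a median log2 change of 0.01. Autophagy genes outside the name rule had 0 of 18 called higher (limma; 0 at an unadjusted p under 0.05) and 1 lower, with a median of -0.08. The 1 was Trp53inp2, a nuclear cofactor that also binds LC3 on autophagosomes, which read 883.7 and 1194.1 in FtMT-Adip, against 2382.4 and 3838.1 in WT. Both FtMT-Adip arrays lay far below both WT arrays. Its log2 change was -1.55 (SE 0.257, limma adjusted p = 0.00879, 2.94-fold lower), and the call was kept when any 1 array was left out (-1.95 to -1.14).

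The list of selective autophagy receptors and mitophagy genes had 1 of 15 called higher and 0 lower by limma (2 lower at an unadjusted p under 0.05), with a median log2 change of -0.11. The called gene was Stbd1, which tethers glycogen to membranes and binds GABARAP proteins. Stbd1 read 333.4 and 390.2 in FtMT-Adip, against 210.2 and 151.7 in WT, with no overlap and a log2 change of 1.23 (SE 0.203, limma adjusted p = 0.00863, 2.35-fold higher), kept when any 1 array was left out. Ncoa4, the receptor that carries cytosolic ferritin to the lysosome, is given because the transgene is a ferritin and was chosen after its values were seen. It read 292.9 and 293.8 in FtMT-Adip, against 388.9 and 280.2 in WT, so the groups overlapped, with a log2 change of -0.23 (SE 0.184, adjusted p = 0.551).

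The list of mTORC1, TSC and AMPK genes, which control the ULK complex and the lysosomal transcription factors, had 3 of 25 called higher and 0 lower by limma (0 lower at an unadjusted p under 0.05), with a median log2 change of 0.00. Rragd, a Rag GTPase, read 156.9 and 158.6 in FtMT-Adip, against 114.3 and 114.1 in WT, where it was not above background. It was at least 1.49-fold higher, taking the lowest signal above background on each WT array as the bound. The measured means were 6.78 in FtMT-Adip and 6.08 in WT on the log2 scale (limma adjusted p = 0.00427). Rragd entered the test only through its FtMT-Adip arrays. With the filter on all 4 arrays it was not tested and the list had 2 genes called higher. Leaving out an array kept the same filter, so no conclusion is drawn from the p-value or call of Rragd. Flcn, folliculin, which acts on RagC and RagD, read 959.6 and 968.0 in FtMT-Adip, against 575.4 and 551.4 in WT, and its groups stood far apart. Its log2 change was 0.82 (SE 0.150, adjusted p = 0.0131, 1.77-fold higher) on 1 of 2 tested probes, with the call lost without FtMT-Adip replicate 1 (adjusted p = 0.0743) or WT replicate 1 (adjusted p = 0.0609). Fnip1, the partner of folliculin, read 671.8 and 813.5 in FtMT-Adip, against 498.3 and 446.5 in WT. The log2 change of Fnip1 was 0.69 (SE 0.156, adjusted p = 0.0310) on 1 of 3 tested probes, and the call was lost when any 1 array was left out.

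Of the genes for fusion of autophagosomes with lysosomes, 1 of 16 was called higher and 0 lower by limma (2 lower at an unadjusted p under 0.05), with a median log2 change of 0.08. Plekhm2, an adaptor that couples lysosomes to the motor protein kinesin, read 2238.2 and 2200.1 in FtMT-Adip, against 1215.5 and 1065.1 in WT. The FtMT-Adip arrays were both far above the WT arrays, with a log2 change of 1.05 (SE 0.151, limma adjusted p = 0.00487, 2.07-fold higher) that stayed called without any 1 array.

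The list of MiT/TFE factors and their lysosomal target genes had 4 of 22 called higher and 0 lower by limma. Over all named genes 3.57% were called higher and 4.29% lower. At an unadjusted p under 0.05 there were 9 higher and 0 lower, where 21.4% of all tested probes passed in either direction. The median log2 change of the list was 0.32. The groups did not overlap for 14 genes higher in FtMT-Adip, where the background was 26.9%, and for 2 lower, where it was 25%. Lamp1, the main lysosomal membrane glycoprotein, read 10596.5 and 9212.1 in FtMT-Adip, against 6000.2 and 6303.1 in WT, a log2 change of 0.76 (SE 0.142, limma adjusted p = 0.0144). Both FtMT-Adip arrays of Lamp1 were far above its WT arrays. In the authors' normalized values, at a pseudocount of 1, the log2 change of Lamp1 was 0.22 (limma adjusted p = 0.822). Psap, the precursor of the saposins, read 22365.1 and 17514.8 in FtMT-Adip, against 13418.0 and 12407.8 in WT, with no overlap and a log2 change of 0.71 (SE 0.140, adjusted p = 0.0173). The calls for Lamp1 and this brightest Psap probe were lost without FtMT-Adip replicate 1, where the log2 changes were 0.62 and 0.56. Another Psap probe, ILMN_2776600, was also called and is named after its values were seen. It read 17058.5 and 16275.1 in FtMT-Adip, against 9736.9 and 8757.4 in WT. Its log2 change was 0.91 (SE 0.122, limma adjusted p = 0.00353). Clcn7, the chloride-proton exchanger of lysosomes, had a log2 change of 0.70 (SE 0.150, adjusted p = 0.0245), and its call was lost when any 1 array was left out. Without FtMT-Adip replicate 1 the list kept 1 call of 4. Mitf and Tfec, the factors on the list, were below background and not tested.

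A list of 12 autophagy genes described in mouse cells as targets of the stress factors ATF4 and CHOP overlaps the machinery itself. Of it, 1 gene was called higher, Sqstm1, and 0 lower by limma (1 lower at an unadjusted p under 0.05), with a median log2 change of -0.05. Over the 6 lists 11 genes were called, Rragd included, and 10 with the filter on all 4 arrays. In the authors' normalized values 2 stayed called, Trp53inp2 and Stbd1. Counting every tested probe, 15 probes of these lists were called. The added ones include probes of 2 genes whose brightest probe was not called, which are named after their values were seen. Pink1, a kinase that marks damaged mitochondria, was lower by 1 of 2 probes (log2 change -0.70, limma adjusted p = 0.0270) and at -0.35 by the brighter one (adjusted p = 0.344). Lamp2, a lysosomal membrane protein with several isoforms, was higher by 2 of 4 probes (log2 changes 1.03 and 0.73, adjusted p = 0.0114 and 0.0212) and at 0.23 by its brightest (adjusted p = 0.457). The Pink1 call was lost without either FtMT-Adip array or WT replicate 1. Both Lamp2 calls were lost without FtMT-Adip replicate 1 or WT replicate 1, and the smaller one without either remaining array too.

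**Figure D4:**
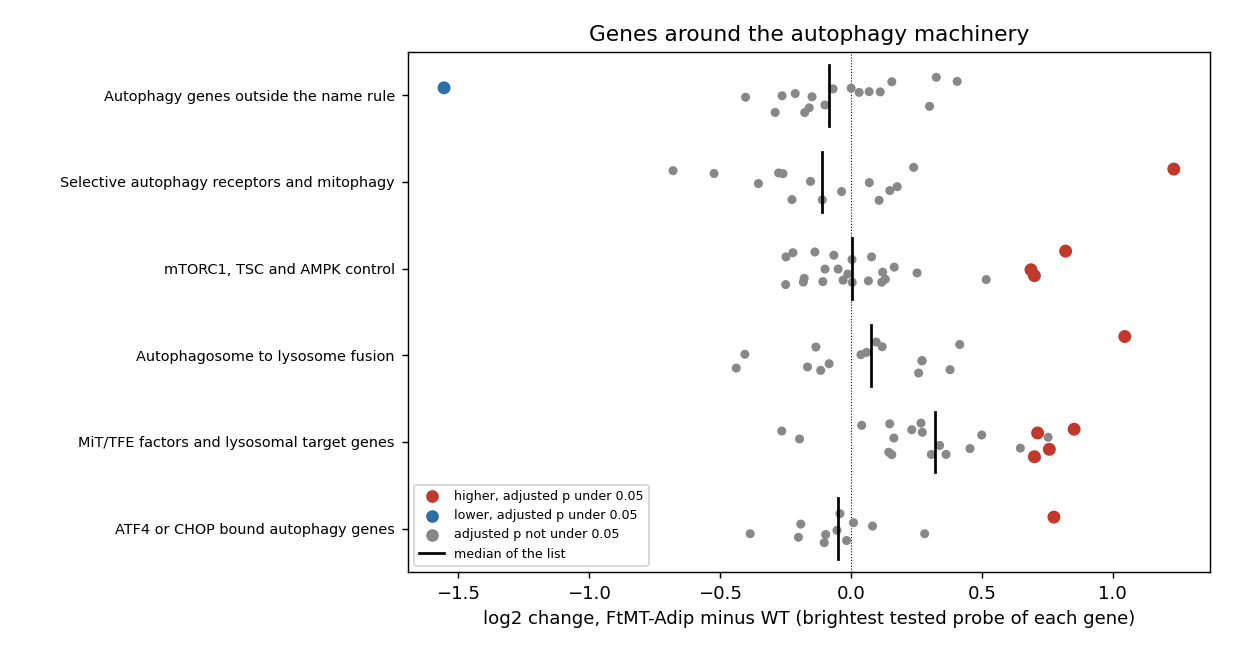
Log2 change, FtMT-Adip minus WT, of each tested gene on the 6 pathway lists (red and blue, called higher and lower; grey, not called; black bar, median of the list). Trp53inp2 stands alone on the left at -1.55, and the list of MiT/TFE factors and lysosomal targets has the highest median, 0.32.

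The tissue held several cell types, and in bulk RNA fewer cells of a type and less RNA per cell cannot be told apart. Beside the marker counts here and below, 3.57% of all named genes tested were called higher and 4.29% lower. Adipocyte markers were lower in FtMT-Adip for 9 of 12 genes, led by Cfd (-3.04), Rbp4 (-1.92) and Car3 (-1.74) in log2 change. The summed adipocyte marker signal over background was 48273 and 63598 in FtMT-Adip, against 138856 and 116454 in WT, a ratio of 0.438. Macrophage markers were higher for 13 of 15 tested genes, led by Gpnmb (2.72), Trem2 (2.29) and Cd68 (1.83), with a summed signal of 36649 and 30299 in FtMT-Adip, against 12364 and 13124 in WT, a ratio of 2.63, while Msr1 was at background on all arrays. In the authors' normalized values 7 of the 15 macrophage markers were called higher. There, at a pseudocount of 1, 699 of the 20797 tested probes were called in either direction. Of the endothelial markers 4 of 10 were lower, led by Cldn5 (-1.36), Cdh5 (-1.02) and Pecam1 (-0.83), and their sum had a ratio of 0.585. The falls of Map1lc3a, Wipi1 and Trp53inp2 stand beside the lower adipocyte and endothelial sums, and the rises of Sqstm1 and the lysosomal genes beside the higher macrophage sum. The part of these cell types in the autophagy results was not tested.

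Skeletal muscle markers were at 9702 and 1802 in summed signal in FtMT-Adip, against 651 and 931 in WT, so FtMT-Adip replicate 1 held most of it. Called muscle markers were Atp2a1 (2.79) and Acta1 (1.76), and Myh1 was at background on all arrays. Without that array the log2 change was -1.07 for Map1lc3a ILMN_2832682, -0.94 for Wipi1 ILMN_2834677, -1.38 for Trp53inp2 and 1.31 for Stbd1, all still called. For Sqstm1 it was 0.80 without that array, with the call lost as given above. Preadipocyte and fibroblast markers had 2 of 10 called higher (Ly6a, 0.88; Lum, 0.71) at a ratio of 1.37, lymphocyte markers 0 of 10 called by limma (1 at an unadjusted p under 0.05) at 1.14, and neutrophil and mast cell markers 3 of 7 higher and 1 lower (S100a8, -2.55; Cma1, 1.39; Cpa3, 1.35) at 1.02. The calls of Pecam1, Lum, Ly6a, Acta1, Atp2a1 and Cma1 were each lost when at least 1 particular array was left out. Across the arrays the median signal ran from 116.5 to 119.0, and 19717 to 20427 probes per array were above background. Precision throughout is limited by having 2 arrays per group.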

How the data were processed

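Biotin-labelled RNA was hybridised to Illumina BeadChips, per the labels' protocols. The authors deposited 1 table of non-normalized intensity values and 1 of normalized intensity values, with a method of normalization not given in the sources used here. Per the file headers, the deposited tables also hold a ratio of FtMT-Adip to WT means for each probe. The non-normalized intensity was corrected with normexp (offset 50), quantile normalized and put on the log2 scale with limma 3.58.1 in R 4.3.3. Without detection p-values among the columns used, background was set by 1479 olfactory and vomeronasal receptor probes. A probe was tested when its empirical p was under 0.05 on at least 2 of 4 arrays, which left 20797 probes. FtMT-Adip was compared with WT by a two-sided test (lmFit, then eBayes with a variance trend), and p-values were adjusted by Benjamini-Hochberg across these probes, with a threshold of 0.05. SE is the moderated standard error of the log2 change. The fit was tested on simulated data.

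Names in the tables were matched to RefSeq symbols of GRCm38.p6, 22864 probes by symbol and 11917 by a synonym, and 10473 kept the table's name. No scan date or slide was available to examine as a batch. Members and gene lists were chosen with earlier results of these data known. All members were described. From each pathway list up to 4 called genes with the largest change were named, and from each marker list up to 3. Of the lysosomal list, 1 called gene is counted but not reported here by name. Marker sums are deposited signals over the receptor median. Alternatives were other background corrections, scalings, filters and variance models, the authors' normalized values with pseudocounts of 1 and 50, a replicate block, and each array left out in turn. Across tested probes, same-numbered arrays deviated with a correlation of -0.079, so the numbers were not used as pairs.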

Additional observations from a re-analysis of the deposited data

How the results depend on the processing

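With subtraction of the receptor median, limma called 0 autophagy probes higher and 0 lower, 1 probe on the whole array and 0 pathway genes, where the reported fit called 1, 3, 1548 and 11. With the authors' normalized values these counts were 0, 1, 699 and 2 at a pseudocount of 1, with a median autophagy log2 change of -0.20 in place of -0.10, and 0, 1, 560 and 2 at a pseudocount of 50. A robust variance prior called 2 autophagy probes higher. The cause was not tested. Leaving out 1 array gave 0 to 1 higher, 2 to 3 lower, 661 to 1595 probes on the whole array, 5 to 13 pathway genes and a median of -0.21 to -0.087. A replicate block gave 1 higher, 3 lower, 1225 in all and 9 pathway genes. The other alternatives stayed within 1.5 times of each count. An equal count did not always hold the same probes. With median scaling the 1 autophagy probe called higher was Atg4c in place of Sqstm1. In the authors' normalized values, at pseudocounts of 1 and 50, the sign of the log2 change turned for Becn1 ILMN_2609984 (0.12 and 0.082), Gabarap (-0.20 and -0.18), Gabarapl1 (-0.15 and -0.099), Gabarapl2 (0.39 and 0.046), Pik3c3 (0.067 and 0.026) and Ulk1 ILMN_1228475 (-0.20 and -0.061). With 1 array left out it turned within -0.32 to 0.12 for that Becn1 probe, -0.053 to 0.071 for Map1lc3b, -0.14 to 0.11 for Gabarapl2, -0.052 to 0.10 for that Ulk1 probe, -0.15 to 0.28 and -0.26 to 0.16 for the Nbr1 probes, -0.20 to 0.0084 for Atg5 ILMN_2998139, -0.10 to 0.011 for Tax1bp1, -0.46 to 0.010 for Ncoa4, and -0.43 to 0.067 and -0.14 to 0.058 for the Atg10 probes. None of these was called. Ulk2 ILMN_2496817 passed the threshold under 3 alternatives (limma, adjusted p 0.0429 to 0.0474). Atg4c did so with median scaling (0.0416) and a robust variance prior (0.0465), and had a log2 change of 0.50 without FtMT-Adip replicate 2. As Atg4c entered the test only through its FtMT-Adip arrays, no conclusion is drawn from its passing. Probes near background, such as Atg4c, Gabarapl2 and Nbr1, are limited by signal.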
